A study of Mus musculus with 6 samples.

Results

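The aminoacyl-tRNA synthetases were examined in 6 RNA-seq libraries of cultured mouse neural stem cells, as 36 genes of the 29267 gene identifiers in the deposited tables. They were chosen by gene symbol, as 20 genes for cytosolic enzymes and 16 for mitochondrial ones, and all 36 were found and had enough counts to be tested. The cells carried the strain label OG2 and were at passage 8 in every library. 3 libraries came from differentiated cells (labelled D2) and 3 from undifferentiated neural stem cells (labelled NSC). In each state 1 library was made with naloxone (Nal), an antagonist of opioid receptors, 1 with DAMGO (Dam), a peptide that activates the mu opioid receptor, and 1 as control (Con). Doses, exposure times and the differentiation protocol were not given in the sources used here, and nothing says whether the libraries came from separate cultures. Each of the 6 groups thus held 1 library, and p-values for the state measure only the spread between these 6 libraries, which may be technical.

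Aminoacyl-tRNA synthetases join each amino acid to its transfer RNA and so supply translation with its charged substrates. Cytosolic and mitochondrial translation use separate sets of enzymes, both made from nuclear genes, and the mitochondrial enzymes are imported. In mammals a few genes serve both compartments, among them Gars for glycine and Kars for lysine. Several cytosolic enzymes sit in a multisynthetase complex held by 3 scaffold proteins, Aimp1, Aimp2 and Eef1e1. The transcription factor ATF4, which is translated when amino acids run short, is known to drive transcription of many cytosolic synthetase genes.

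Library totals were 8417074, 8809642 and 10218353 expected counts in D2 Nal, Dam and Con, and 13561237, 9112916 and 10674127 in NSC Nal, Dam and Con. Labels were set against marker genes over all 3 libraries of a state. In the D2 libraries all 6 cell cycle markers fell, and all 5 astrocyte markers and the 4 tested oligodendrocyte lineage markers rose (edgeR quasi-likelihood test, Benjamini-Hochberg adjusted p under 0.05). By the same test 39.8% of all 13216 genes tested fell and 40% rose. Of 9 neural stem cell markers 6 rose and 3 fell, and Nes was among those that fell, at a log2 fold change of -2.18. Of 5 neuron markers Tubb3, Dcx and Rbfox3 rose, at log2 fold changes of 3.13, 2.88 and 1.74, Snap25 fell, at -1.06, and Map2 did not pass. Of the 4 tested fibroblast and pericyte markers Pdgfrb and Acta2 rose and Col1a1 and Col1a2 did not pass, and the list of 6 summed to 14.9 to 25.3 CPM in D2 and 0.77 to 9.59 CPM in NSC. Endothelial markers summed to 3.09 to 4.01 CPM in D2 and 3.62 to 4.68 CPM in NSC, and the 1 tested, Kdr, did not pass. Microglia markers summed to 0.23 to 0.36 CPM in D2 and 1.40 to 1.98 CPM in NSC. The part of these other cell types in the results on the synthetases was not tested. In bulk RNA, fewer cells of a type and less RNA per cell cannot be told apart, and this holds for every state difference given here.

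The cytosolic synthetase mRNAs were lower in differentiated cells as a class, and the mitochondrial ones were divided. Of the 20 cytosolic genes 16 fell, 1 rose and 3 did not pass the test. Of the 16 mitochondrial genes 6 fell, 3 rose and 7 did not pass. Among all 13216 genes tested, 39.8% fell and 40% rose (edgeR quasi-likelihood test on the additive model of state and ligand, Benjamini-Hochberg adjusted p under 0.05). The median log2 fold change of D2 over NSC was -0.73 for the cytosolic genes and -0.14 for the mitochondrial genes, beside 0.0015 for all genes tested.

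The class sums show the same division on the TPM scale, which is per transcript length. Cytosolic synthetases summed to 1817, 1811 and 1825 TPM in D2 Nal, Dam and Con, against 2826, 2882 and 2895 TPM in NSC Nal, Dam and Con. The D2 libraries all lay below the NSC libraries and close to each other. Mitochondrial synthetases summed to 544, 447 and 409 TPM in D2 Nal, Dam and Con, against 437, 456 and 473 TPM in NSC Nal, Dam and Con. The 2 states overlapped in this sum, with D2 Nal highest and D2 Con lowest of the 6. Without Lars2, the mitochondrial leucine enzyme, the sum was 369, 362 and 348 TPM in D2 Nal, Dam and Con and 389, 401 and 418 TPM in NSC Nal, Dam and Con, so that all D2 libraries lay below all NSC libraries. The ratio of the cytosolic to the mitochondrial sum was 3.34 to 4.47 in D2 and 6.12 to 6.46 in NSC, and without Lars2 it was 4.92 to 5.24 in D2 and 6.92 to 7.27 in NSC.

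**Figure D1:**
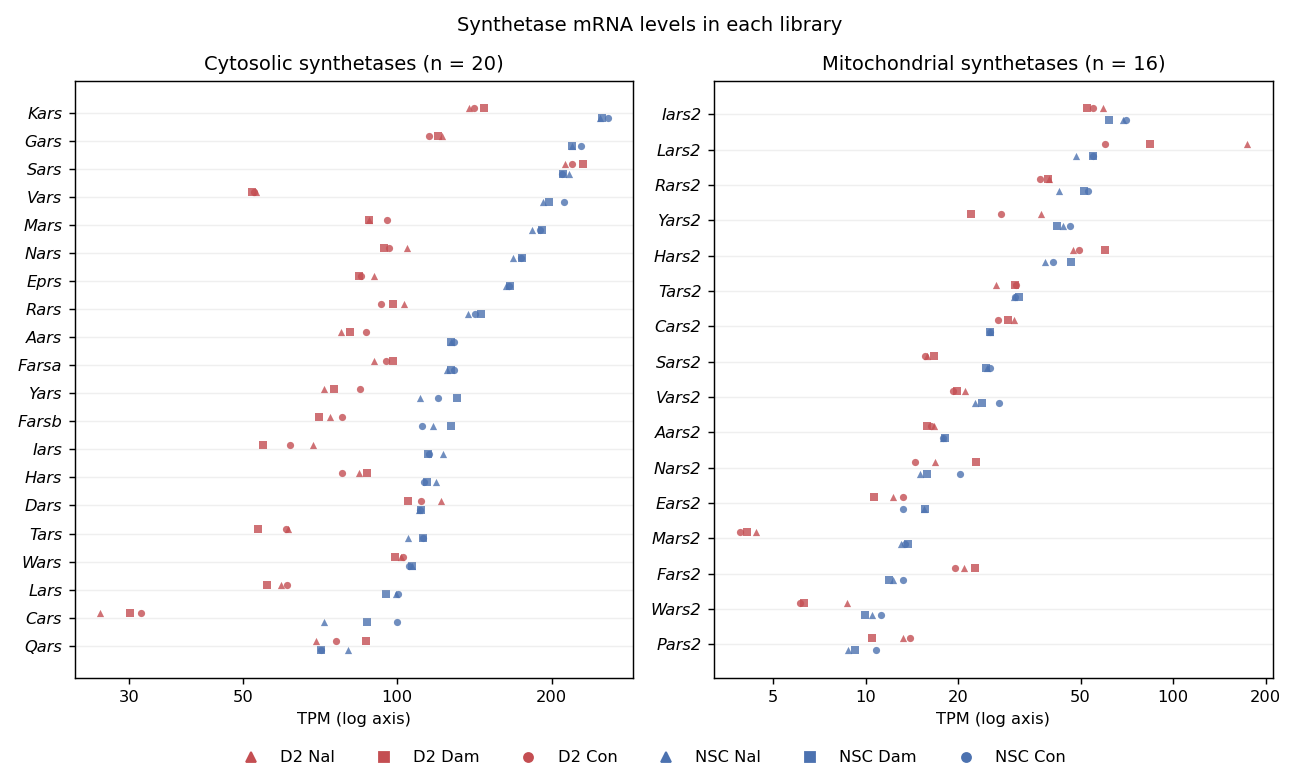
TPM of each synthetase in each of the 6 libraries on a log axis, with cytosolic genes on the left and mitochondrial genes on the right, ordered by their mean in NSC. Symbols mark the ligand and colours the state; D2 symbols of most cytosolic genes lie left of the NSC symbols, and the D2 Nal symbol of Lars2 at 174 TPM stands apart.

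Levels within each class spanned a wide range. The median cytosolic enzyme was at 86.2, 87.1 and 85.8 TPM in D2 Nal, Dam and Con, against 124, 127 and 124 TPM in NSC Nal, Dam and Con. The median mitochondrial enzyme was at 21.0, 22.4 and 19.3 TPM in D2 Nal, Dam and Con, against 23.6, 24.2 and 25.3 TPM in NSC Nal, Dam and Con. In TPM Sars, the seryl enzyme, was the most abundant cytosolic member in all 3 D2 libraries, and Kars was the most abundant in all 3 NSC libraries. Among the mitochondrial members Lars2 was highest and Mars2 lowest in TPM in all 3 D2 libraries, whereas Iars2 was highest and Pars2 lowest in all 3 NSC libraries. These ranks depend on the unit. In D2 Con Iars2 had 1176 counts and Lars2 1080. Mars2, with an assigned length of 11294 bases, had 205 counts there and Pars2 had 124.

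The largest fall belonged to Vars, the cytosolic valyl enzyme (chromosome 17, 35000987 to 35016322, mm10). Vars had 52.9, 52.1 and 52.4 TPM in D2 Nal, Dam and Con, against 193, 197 and 211 TPM in NSC Nal, Dam and Con. Every D2 library was far below every NSC library, and the log2 fold change was -1.79 (SE 0.06, edgeR adjusted p = 6.23e-11). Cars, the cysteinyl enzyme (chromosome 7), was the least abundant cytosolic member over the 6 libraries, at 26.3, 30.1 and 31.7 TPM in D2 Nal, Dam and Con, against 71.8, 87.2 and 99.9 TPM in NSC Nal, Dam and Con. In TPM naloxone was lowest and control highest in both states, and the groups did not overlap (log2 fold change -1.33, SE 0.07, edgeR adjusted p = 2.76e-09).

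Members of the multisynthetase complex followed. Mars, the methionyl enzyme, had 87.9, 88.0 and 95.4 TPM in D2 Nal, Dam and Con, against 184, 192 and 190 TPM in NSC Nal, Dam and Con. The states did not overlap, and the log2 fold change was -1.07 (SE 0.05, edgeR adjusted p = 3.28e-09). Iars, the isoleucyl enzyme, had 68.5, 54.7 and 61.8 TPM in D2 Nal, Dam and Con, against 123, 115 and 115 TPM in NSC Nal, Dam and Con. All D2 values were below all NSC values (log2 fold change -0.97, SE 0.05, edgeR adjusted p = 4.69e-09). Eprs, a fused enzyme for glutamate and proline, had 90.3, 84.3 and 84.8 TPM in D2 Nal, Dam and Con, against 163, 166 and 165 TPM in NSC Nal, Dam and Con. Its states were also apart (log2 fold change -0.94, SE 0.05, edgeR adjusted p = 3.46e-09). Mars shares 68 exon bases with Ddit3 on the opposite strand, and the library kit does not mark strand.

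Gars and Kars, which serve both compartments, fell like most of the cytosolic class. Gars had 122, 120.02 and 115 TPM in D2 Nal, Dam and Con, against 219.6, 219.7 and 229 TPM in NSC Nal, Dam and Con. Kars had 138, 148 and 141 TPM in D2 Nal, Dam and Con, against 248, 251 and 258 TPM in NSC Nal, Dam and Con. For both, all D2 libraries were below all NSC libraries, and both fell, with edgeR log2 fold changes of -0.91 for Gars (SE 0.05, adjusted p = 1.01e-08) and -0.83 for Kars (SE 0.05, adjusted p = 2.21e-08). The remaining 9 cytosolic falls were those of Tars, Nars, Lars, Farsb, Aars, Yars, Rars, Hars and Farsa, with log2 fold changes between -0.92 and -0.44. In TMM-normalised CPM, 16 of the 20 cytosolic genes were lower in D2 without overlap and 2 were higher, and of the 16 mitochondrial genes 7 were lower and 4 higher, beside 40.9% lower and 41.3% higher among all genes. Aars shares 1326 exon bases, 14.3% of its exon bases, with Exosc6 on its own strand. Exosc6 is not among the deposited gene identifiers, and the part of its reads in the Aars values was not tested.

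Dars, Sars and Wars, the aspartyl, seryl and tryptophanyl enzymes, did not pass the test. Sars had 212, 231 and 219 TPM in D2 Nal, Dam and Con, against 217, 210.3 and 209.8 TPM in NSC Nal, Dam and Con. The states overlapped in TPM, and the log2 fold change was 0.10 (SE 0.05, edgeR adjusted p = 0.127). Dars had an edgeR log2 fold change of 0.02 (SE 0.06, adjusted p = 0.744) and Wars one of -0.08 (SE 0.05, adjusted p = 0.162).

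Qars, the glutaminyl enzyme of the complex, was the 1 cytosolic gene called as higher, and this call depended on the unit. Qars had 69.4, 87.1 and 75.8 TPM in D2 Nal, Dam and Con, against 80.2, 70.9 and 71.1 TPM in NSC Nal, Dam and Con. In TPM the states overlapped, while in TMM-normalised CPM Qars was at 61.3, 69.4 and 63.5 in D2 Nal, Dam and Con, against 54.4, 45.2 and 45.8 in NSC Nal, Dam and Con. On that scale all D2 libraries were higher, and the log2 fold change was 0.41 (SE 0.08, edgeR adjusted p = 6.25e-04). The mean transcript length assigned to Qars in the tables was 2025, 1785 and 1886 bases in D2 Nal, Dam and Con, against 1541, 1454 and 1463 bases in NSC Nal, Dam and Con. Lengths were thus longer in every D2 library, and limma on log2(TPM + 1) gave 0.06 (SE 0.10, adjusted p = 0.603). Of the 36 members only Qars, Kars and Yars2 had lengths that did not overlap between states, and the part of transcript choice in the Qars call was not tested.

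The complex and the free enzymes were similar in median. Of the 8 enzymes of the multisynthetase complex 6 fell and 1 rose, with a median log2 fold change of -0.79. Of the other 12 cytosolic enzymes 10 fell and none rose, with a median of -0.67. All 3 scaffolds fell. Beside these counts, 39.8% of all genes tested fell and 40% rose. Aimp2 had 32.9, 32.4 and 33.5 TPM in D2 Nal, Dam and Con, against 75.3, 87.3 and 75.3 TPM in NSC Nal, Dam and Con, and its log2 fold change was -1.28 (SE 0.09, edgeR adjusted p = 4.88e-08). Eef1e1 had a log2 fold change of -0.92 (SE 0.08) and Aimp1 one of -0.16 (SE 0.06, edgeR adjusted p = 0.0332).

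**Figure D2:**
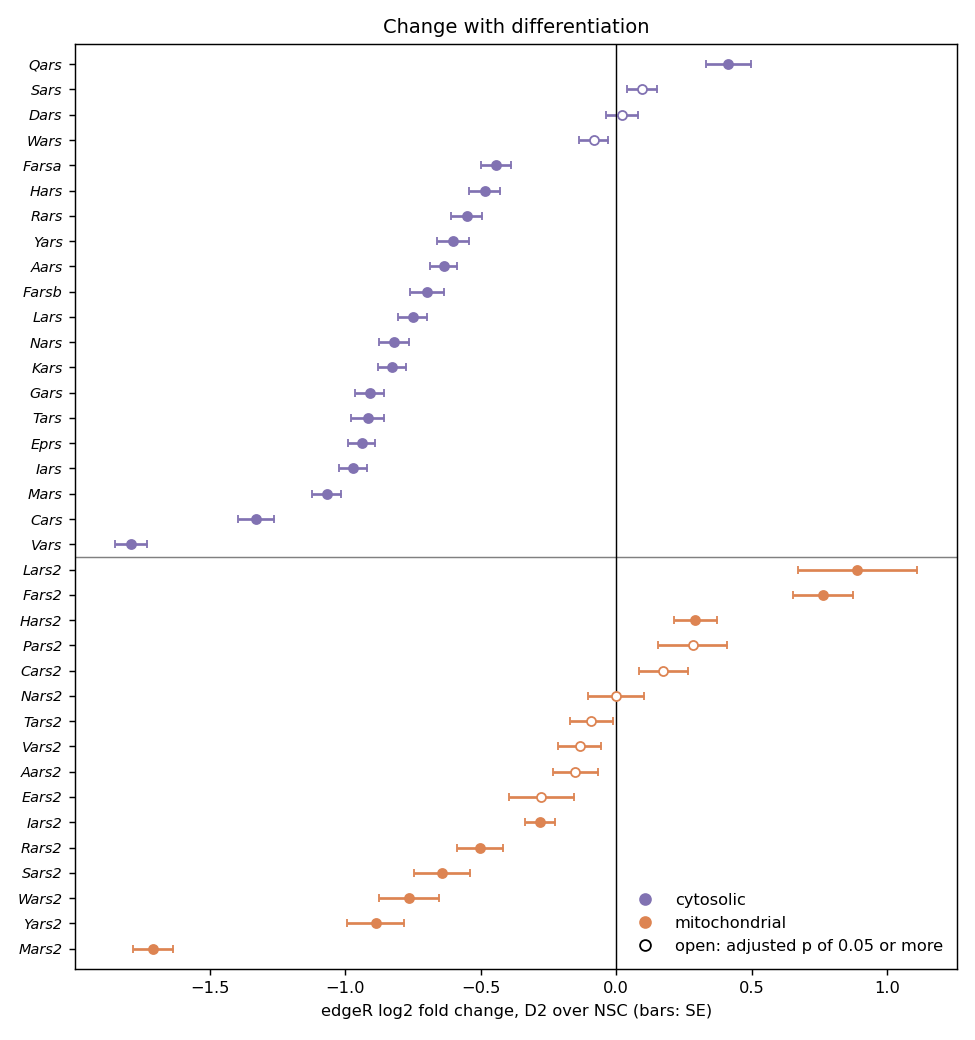
The edgeR log2 fold change of D2 over NSC for the 20 cytosolic genes (above) and the 16 mitochondrial genes (below), with bars for the SE; filled points passed an adjusted p under 0.05 and open points did not. Cytosolic values run from 0.41 (Qars) to -1.79 (Vars) and mitochondrial values from 0.89 (Lars2) to -1.71 (Mars2).

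Promoter sequences were looked up because ATF4 is known to act on synthetase genes through a C/EBP-ATF response element with the core TGATGNAA. RefSeq promoters (GRCm38.p6, 250 bases before to 50 bases after the start) were matched for 27 members, 13 cytosolic and 14 mitochondrial. Cars, Hars, Lars, Nars, Rars, Vars, Wars, Hars2 and Pars2 are named only. On either strand the core was found in 5 of the 13 cytosolic promoters, those of Aars, Gars, Iars, Tars and Yars, in none of the 14 mitochondrial ones, and in 4.51% of 27025 genes with a promoter. These 5 sequences are shown because they are the members with the core, each from 120 bases before to 30 bases after the start, 5′ to 3′ on the gene's strand, with the core or its reverse complement in capitals.
Aars, chr8:111033722-111033871, plus strand: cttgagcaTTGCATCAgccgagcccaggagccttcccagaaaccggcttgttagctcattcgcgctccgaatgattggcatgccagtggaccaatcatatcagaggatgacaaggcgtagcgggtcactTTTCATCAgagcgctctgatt
Gars, chr6:55037881-55038030, plus strand: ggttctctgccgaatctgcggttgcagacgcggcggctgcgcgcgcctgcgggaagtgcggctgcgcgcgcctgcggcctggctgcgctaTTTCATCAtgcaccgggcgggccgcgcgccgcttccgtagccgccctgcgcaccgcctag
Iars, chr13:49682010-49682159, plus strand: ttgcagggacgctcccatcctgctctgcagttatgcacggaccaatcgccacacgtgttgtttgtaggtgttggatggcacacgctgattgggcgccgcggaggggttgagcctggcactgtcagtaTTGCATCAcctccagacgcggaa
Tars, chr15:11399629-11399778, minus strand: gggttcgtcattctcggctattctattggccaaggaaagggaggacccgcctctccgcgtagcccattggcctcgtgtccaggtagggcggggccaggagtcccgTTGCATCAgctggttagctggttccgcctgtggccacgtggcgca
Yars, chr4:129189783-129189932, plus strand: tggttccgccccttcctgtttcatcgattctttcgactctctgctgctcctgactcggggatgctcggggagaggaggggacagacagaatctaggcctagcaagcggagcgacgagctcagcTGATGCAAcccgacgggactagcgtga

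Aars held 2 matches and the other genes 1 each. Counted from the transcription start, the first base of the match lay at -112 and 10 in Aars, -30 in Gars, 8 in Iars, -15 in Tars and 4 in Yars. The match was on the gene's own strand in Yars and on the opposite strand in the others. All 5 genes fell in D2, with edgeR log2 fold changes from -0.97 for Iars to -0.60 for Yars, inside the range of the cytosolic genes without the core. Among the other motifs searched, the E-box CACGTG stood in 4 of 13 cytosolic and 1 of 14 mitochondrial promoters, beside 8.09% of all genes. The ETS motif CCGGAAGT stood in 2 cytosolic and 1 mitochondrial promoters (4.31% of all genes), and the NRF1 motif in none of either class (1.07% of all genes). A match is a string of letters and says nothing of binding in these cells.

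Other genes that ATF4 or amino acid shortage is known to induce were mostly lower in D2. Of 28 listed genes 27 were tested, of which 19 fell, 7 rose and 1 did not pass, with a median log2 fold change of -0.98. Among all genes tested, 39.8% fell and 40% rose. Mthfd2, a mitochondrial folate enzyme, had 7.26, 6.89 and 7.39 TPM in D2 Nal, Dam and Con, against 83.2, 88.8 and 79.4 TPM in NSC Nal, Dam and Con. The states were far apart, and the log2 fold change was -3.51 (SE 0.09, edgeR adjusted p = 7.63e-12). Eif4ebp1, a repressor of cap-dependent translation, changed by -3.22 (SE 0.15), Trib3, an inhibitory pseudokinase, by -3.13 (SE 0.56) and Chac1, a glutathione-degrading enzyme, by -2.78 (SE 0.28). Few counts underlie the last 2 values: in D2 Nal, Dam and Con Trib3 had 2, 4 and 0 and Chac1 10, 6 and 9. In NSC Nal, Dam and Con Trib3 had 31, 20 and 16 counts and Chac1 78, 53 and 77. The 7 that rose included Slc6a9, a glycine transporter, at 2.35 (SE 0.08), Ddit4, an inhibitor of mTORC1 signalling, at 1.63 (SE 0.06), and Psph, an enzyme of serine synthesis, at 1.01 (SE 0.07). Atf4 mRNA itself was at 193, 203 and 213 TPM in D2 Nal, Dam and Con, against 272, 271 and 281 TPM in NSC Nal, Dam and Con, with an edgeR log2 fold change of -0.44 (SE 0.05, adjusted p = 7.67e-06). Of the 4 kinases that phosphorylate eIF2alpha, 3 fell and Eif2ak1 rose (edgeR log2 fold change 0.57, SE 0.06). The 6 cell cycle markers, which moved with these groups, summed to 322 to 365 CPM in D2 and 3990 to 4012 CPM in NSC, and their part in the synthetase falls was not tested.

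Mars2, the mitochondrial methionyl enzyme (chromosome 1, 55237177 to 55248470), had by far the largest mitochondrial fall. Mars2 had 4.39, 4.10 and 3.88 TPM in D2 Nal, Dam and Con, against 13.1, 13.7 and 13.4 TPM in NSC Nal, Dam and Con. No D2 library came near an NSC library, and the log2 fold change was -1.71 (SE 0.08, edgeR adjusted p = 8.03e-10). Yars2, the tyrosyl enzyme, had 37.3, 22.1 and 27.4 TPM in D2 Nal, Dam and Con, against 43.8, 41.9 and 46.1 TPM in NSC Nal, Dam and Con. The states did not overlap, D2 Nal lay closest to NSC, and the log2 fold change was -0.89 (SE 0.11, edgeR adjusted p = 8.00e-06). Its assigned length was 1193, 1442 and 1411 bases in D2 Nal, Dam and Con, against 1518, 1666 and 1587 bases in NSC Nal, Dam and Con.

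Other mitochondrial falls were smaller. Wars2, the tryptophanyl enzyme, had 8.67, 6.27 and 6.09 TPM in D2 Nal, Dam and Con, against 10.5, 9.91 and 11.2 TPM in NSC Nal, Dam and Con. All D2 values were below all NSC values (log2 fold change -0.76, SE 0.11, edgeR adjusted p = 4.56e-05). Sars2, the seryl enzyme, had 15.8, 16.7 and 15.6 TPM in D2 Nal, Dam and Con, against 24.7, 24.6 and 25.3 TPM in NSC Nal, Dam and Con. Both groups were tight and apart (log2 fold change -0.64, SE 0.10, edgeR adjusted p = 9.60e-05). Rars2, the arginyl enzyme, had 39.3, 39.0 and 37.0 TPM in D2 Nal, Dam and Con, against 42.5, 51.2 and 52.9 TPM in NSC Nal, Dam and Con, again without overlap (log2 fold change -0.50, SE 0.09, edgeR adjusted p = 1.70e-04). Iars2, the isoleucyl enzyme, had 59.2, 52.3 and 54.7 TPM in D2 Nal, Dam and Con, against 68.6, 62.0 and 70.4 TPM in NSC Nal, Dam and Con. Its states were close but did not overlap (log2 fold change -0.28, SE 0.05, edgeR adjusted p = 5.13e-04), and it shares 2034 exon bases with Rab3gap2 on the opposite strand.

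Lars2, Fars2 and Hars2 rose. Fars2, the phenylalanyl enzyme, which is a single chain in mitochondria and a pair of subunits, Farsa and Farsb, in the cytosol, had 20.8, 22.7 and 19.5 TPM in D2 Nal, Dam and Con, against 12.2, 11.9 and 13.2 TPM in NSC Nal, Dam and Con. Every D2 library was above every NSC library (log2 fold change 0.77, SE 0.11, edgeR adjusted p = 4.53e-05), and Fars2 shares 501 exon bases with Nrn1 on the opposite strand. Hars2, the histidyl enzyme, had 47.1, 59.9 and 49.4 TPM in D2 Nal, Dam and Con, against 38.2, 46.5 and 40.6 TPM in NSC Nal, Dam and Con. Its lowest D2 library was just above its highest NSC library (log2 fold change 0.29, SE 0.08, edgeR adjusted p = 0.00508), and under DESeq2 it did not pass (adjusted p = 0.0503). Hars2 and Hars share 195 exon bases on opposite strands, so reads there cannot be assigned to 1 of them.

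The 7 mitochondrial genes that did not pass were Aars2, Cars2, Ears2, Nars2, Pars2, Tars2 and Vars2, with log2 fold changes from -0.28 for Ears2 to 0.28 for Pars2. Ears2, whose product charges both glutamate and glutamine transfer RNAs in mitochondria, lay on the threshold (SE 0.12, edgeR adjusted p = 0.0503). It had 12.2, 10.6 and 13.2 TPM in D2 Nal, Dam and Con, against 15.4, 15.6 and 13.2 TPM in NSC Nal, Dam and Con, so the controls of the 2 states were level. The amidotransferase that completes mitochondrial glutaminyl-tRNA showed no common direction: its subunit Gatb rose (edgeR log2 fold change 0.69, SE 0.14), Qrsl1 fell (-0.64, SE 0.10) and Gatc had a value of -0.10 (SE 0.07) that did not pass. Pars2, the prolyl enzyme, had 13.2, 10.4 and 13.9 TPM in D2 Nal, Dam and Con, against 8.73, 9.23 and 10.8 TPM in NSC Nal, Dam and Con. Its states overlapped, and its adjusted p was 0.0590 by edgeR.

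Setting 14 of the 16 mitochondrial enzymes beside the cytosolic enzyme for the same amino acid gave 15 pairs, with Fars2 in 2 of them. The other 2, Ears2 and Pars2, were left out of the pairs because their cytosolic counterpart is the fused Eprs. Their log2 fold changes, -0.28 and 0.28, did not pass and were also above that of Eprs, at -0.94. The mitochondrial log2 fold change was above the cytosolic one in 11 pairs, by a median of 0.78 over all 15. Pairs furthest apart were Vars2 and Vars, at -0.14 and -1.79, Lars2 and Lars, at 0.89 and -0.75, and Cars2 and Cars, at 0.17 and -1.33. The 4 exceptions were the pairs for methionine, serine, tryptophan and tyrosine, in which the difference, mitochondrial minus cytosolic, was -0.64, -0.74, -0.68 and -0.29. On the TPM scale the cytosolic mean was above the mitochondrial mean in 14 pairs in D2 and in all 15 in NSC. The D2 exception was leucine, where the mean of Lars was at 0.552 of that of Lars2 in D2 and at 1.86 times it in NSC. Lars and Lars2 were at 59.3 and 174 TPM in D2 Nal and at 55.75 and 84.4 TPM in D2 Dam. In D2 Con they were level, at 60.8 and 60.2 TPM, so the control library did not show this exception. These are descriptions of the listed genes, and the difference between the classes was not tested.

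**Figure D3:**
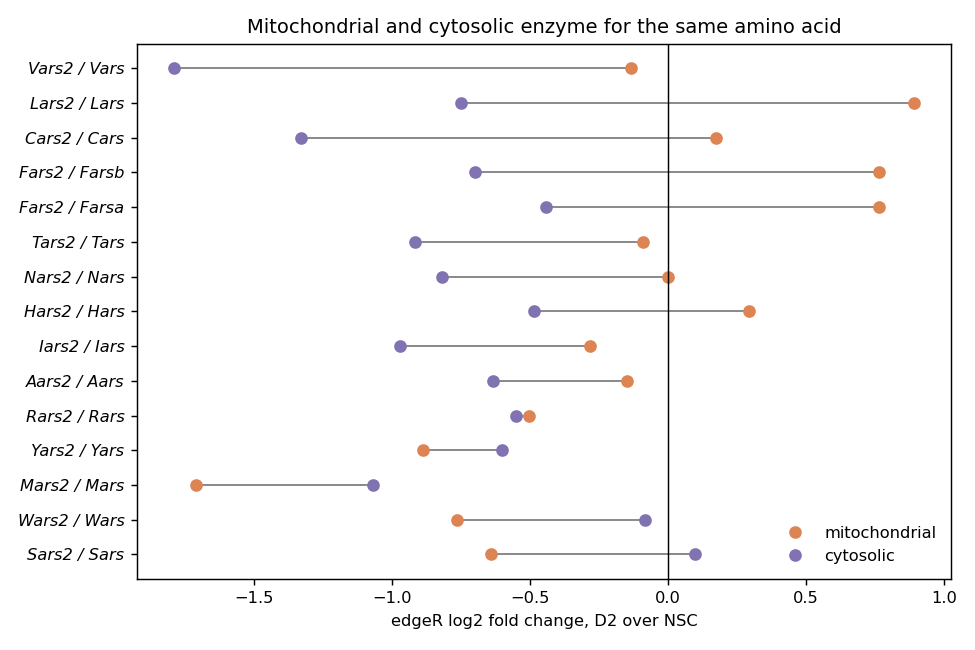
The edgeR log2 fold change of D2 over NSC for the mitochondrial and the cytosolic enzyme of the same amino acid, joined by a line and ordered by their difference. The mitochondrial point is the higher one in 11 of 15 pairs and the lower one for tyrosine, methionine, tryptophan and serine.

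The wider translation machinery had both rises and falls. Of 10 mitochondrial translation factors 5 fell and 3 rose, with a median log2 fold change of -0.14; the initiation factor Mtif3 had the largest rise, at 1.13 (SE 0.11), and the elongation factor Gfm1 the largest fall, at -0.67 (SE 0.06). Of 7 genes for cytosolic elongation, 3 rose and 3 fell, and Eif5a, a factor that relieves stalled ribosomes, fell by 1.39 on the log2 scale (SE 0.05). Of 14 genes for transfer RNA modification and quality control 10 fell and 3 rose, with a median of -0.41. Trnt1, which adds the CCA end to transfer RNAs, fell by 1.87 (SE 0.08), and Trmt61a, a methyltransferase, fell by 1.81 (SE 0.11). The synthetase-like genes Tarsl2 and Aarsd1 fell by 0.73 (SE 0.09) and 0.38 (SE 0.08). All these calls are from edgeR with Benjamini-Hochberg adjustment over all genes tested, of which 39.8% fell and 40% rose.

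Ligand effects over both states were not detected for any member. For naloxone against control, DAMGO against control and naloxone against DAMGO, none of the 36 passed edgeR, DESeq2 or limma, and 2, 0 and 0 members had an unadjusted edgeR p under 0.05, Cars and Lars2 for naloxone. The background was as sparse, with 0.0151%, 0.0151% and 0.0303% of all genes called by edgeR. With 2 residual degrees of freedom and an error estimate into which state-specific ligand effects enter, these counts do not show that the ligands act alike. Within a state, a ligand comparison involves 2 libraries and has no replicate check; it is given as a log2 ratio of TMM-normalised CPM with an exact binomial 95% interval that covers counting error only.

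Most synthetase mRNAs differed little between ligands in the same state. A log2 ratio of 0.32 in size was used as the limit. Past it were 1 member in D2 Nal against D2 Con (18% of all genes), 2 in D2 Dam against D2 Con (16.3%), 1 in NSC Nal against NSC Con (10.7%) and 0 in NSC Dam against NSC Con (11.7%). Between the ligands, 2 members were past it in D2 Nal against D2 Dam (15.8%) and 0 in NSC Nal against NSC Dam (11.5%). All cytosolic members stayed within it in all 6 comparisons, with log2 ratios from -0.29 to 0.27. The comparisons within a state share libraries and are not independent.

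**Figure D4:**
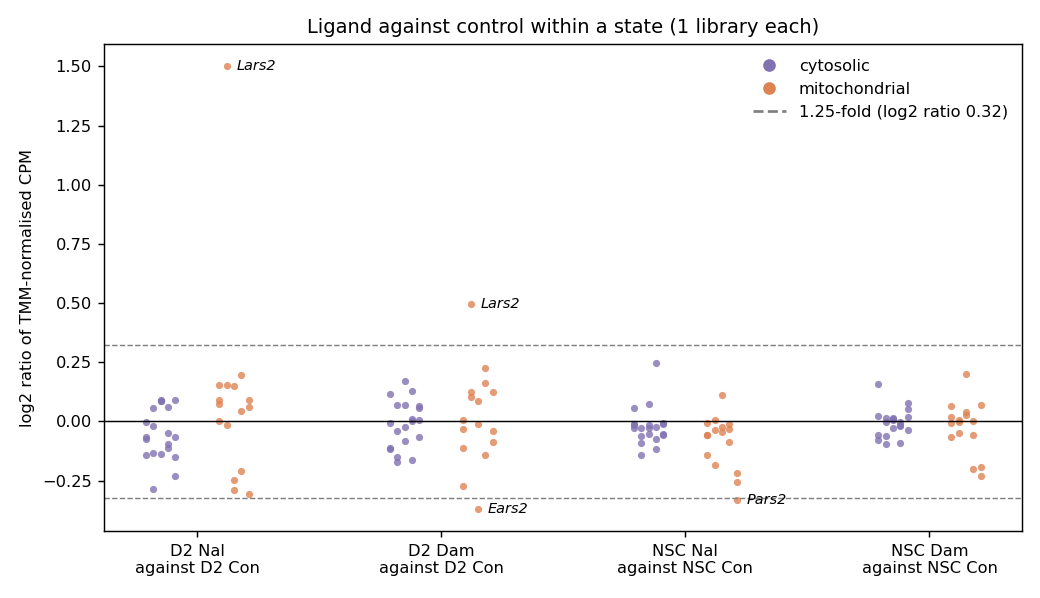
Log2 ratio of TMM-normalised CPM of each ligand library over the control of its state, 1 library each, with 1 point per synthetase and dashed lines at a log2 ratio of 0.32 in size. Lars2 stands at 1.501 in D2 Nal and 0.50 in D2 Dam, and Ears2 in D2 Dam (-0.37) and Pars2 in NSC Nal (-0.33) are the only others past the line.

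Lars2 (chromosome 9, 123366927 to 123462666, plus strand), the mitochondrial leucyl enzyme, was the exception. Lars2 had 174, 84.4 and 60.2 TPM in D2 Nal, Dam and Con, against 48.3, 55.0 and 54.7 TPM in NSC Nal, Dam and Con. D2 Nal was high, D2 Dam intermediate, and D2 Con only a little above the NSC libraries, of which NSC Nal was the lowest. In counts these were 2542, 1321 and 1080 in D2 Nal, Dam and Con, against 1150, 878 and 1022 in NSC Nal, Dam and Con. Lars2 made up 32.0% of the mitochondrial synthetase TPM in D2 Nal, 18.9% in D2 Dam and 14.7% in D2 Con, against 11.04% to 12.1% in the NSC libraries.

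In D2, naloxone over control gave a log2 ratio for Lars2 of 1.501 (95% interval 1.40 to 1.61), a ratio of 2.83. This ranked 2 from the top among the 8282 genes of at least 20 CPM. DAMGO over control gave 0.50 (0.38 to 0.61) at rank 97, and naloxone over DAMGO gave 1.01 (0.91 to 1.10) at rank 3. In NSC the naloxone ratio over control was -0.18 (-0.31 to -0.06), of the opposite sign, and that of DAMGO was 0.00 (-0.13 to 0.14). Across states the edgeR log2 fold change of Lars2 was 0.89 (SE 0.22, adjusted p = 0.00278). Matched by ligand, the log2 ratio of D2 over NSC was 1.82 in Nal, 0.63 in Dam and 0.13 in Con. The fold change was 0.38 without D2 Nal, 0.38 without NSC Nal, and 1.01 to 1.26 when 1 of the other 4 libraries was left out. Leaving out either naloxone library left the same Con and Dam pairs to estimate the state, so these are not separate checks. DESeq2 gave 0.85 with an adjusted p of 0.105, so the call was lost under that test.

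Lars2 moved across the D2 libraries together with Gm42418, a long noncoding RNA gene on chromosome 17 listed here among features with ribosomal RNA-like sequence. Gm42418 had 11690, 8416 and 5454 counts in D2 Nal, Dam and Con, against 3438, 2008 and 2644 counts in NSC Nal, Dam and Con. Its order in D2 was that of Lars2, and its D2 Nal over D2 Con log2 ratio was 1.37 (1.32 to 1.41), at rank 4. Gm26917, another such feature, gave 0.55 (0.35 to 0.76) in the same comparison. Of the 10 features listed, 3 were in the tables and 2 were tested, and they summed to 1441, 996 and 569 CPM in D2 Nal, Dam and Con, against 283, 250.3 and 281 CPM in NSC Nal, Dam and Con, with Gm15564 at 0 counts in 4 libraries. In NSC the naloxone ratio over control was 0.03 (-0.05 to 0.10) for Gm42418. The 6 highest genes of that D2 comparison, chosen after their values were seen, were Gm20721, Lars2, Gm20594, Gm42418, Gm26735 and Kif18a. The floor of 20 CPM for the ranks is a mean over all libraries, so genes low in D2 can enter. Kif18a had 40 and 20 counts in D2 Nal and Con. Gm20721 also varied within NSC, at 2075, 474 and 2809 counts in Nal, Dam and Con. The part of ribosomal RNA-like reads in the Lars2 difference was not tested.

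The Lars2 transcript in GENCODE M21 is 3894 bases long, and its 3′ UTR begins at base 2909. A BLAST search of it against all transcripts of that release found 4 alignments to 3 other genes, and all lay in the 3′ UTR. AA474408 aligned over 97 bases at 94.8% and 50 bases at 96.0% identity, Gm15564 over 72 bases at 98.6% and Ifitm10 over 70 bases at 82.9%. Gm15564 is among the listed features with ribosomal RNA-like sequence. No alignment to Gm42418 was found at an E-value of 1e-05. Ribosomal RNA sequence outside the transcripts of that release was not searched, so the search cannot tell whether Lars2 reads are ribosomal RNA-like. AA474408 had 6, 9 and 8 counts in D2 Nal, Dam and Con, against 32, 16 and 26 in NSC Nal, Dam and Con, and did not follow the order of Lars2. Lars2 was among the 24 of 36 members whose deposited counts were whole in every library (within 0.005).

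**Figure D5:**
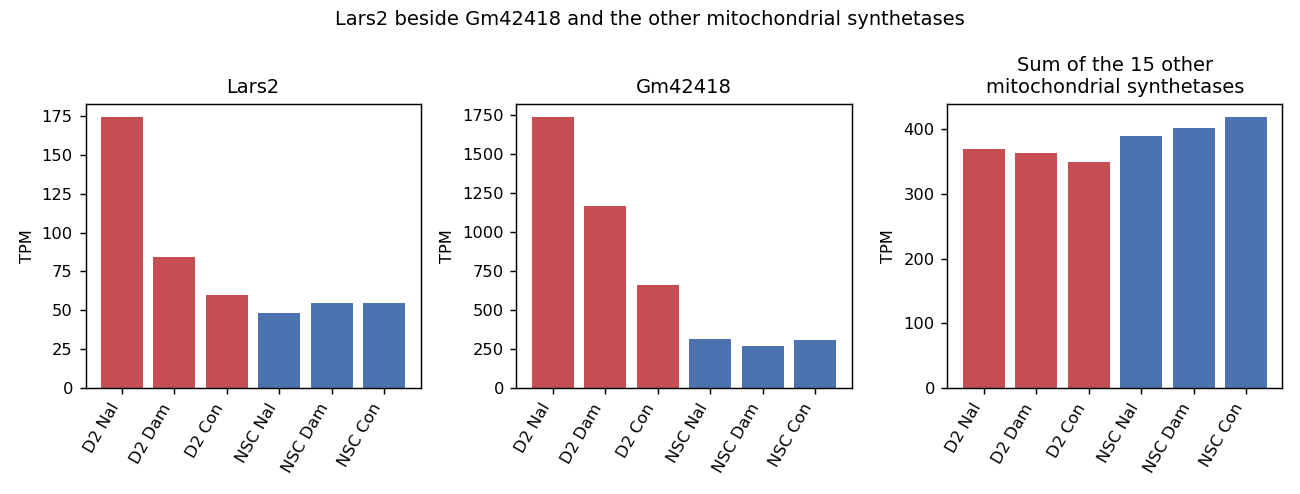
TPM in each library of Lars2 (left), Gm42418 (middle) and the sum of the other 15 mitochondrial synthetases (right), with red bars for D2 and blue bars for NSC, 1 library a bar. Lars2 and Gm42418 are highest in D2 Nal, then D2 Dam, then D2 Con, while the sum of the others is 348 to 369 TPM in D2 and 389 to 418 TPM in NSC.

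The remaining members past that limit within a state were near the line and had wide intervals. Ears2 had 137 counts in D2 Dam and 205 in D2 Con, a log2 ratio of -0.37 (-0.70 to -0.06). Pars2 had 111 counts in NSC Nal and 110 in NSC Con, a log2 ratio of -0.33 (-0.73 to 0.05) after scaling to the larger NSC Nal library, and this interval includes 0. Yars2 had 160 counts in D2 Nal and 124 in D2 Dam, a log2 ratio of 0.42 (0.08 to 0.78), and 173 in D2 Con. Of the 36 members the binomial interval lay off 0 for 5 in D2 Nal against D2 Con, beside 21% of the 13216 genes tested, for 6 in D2 Dam against D2 Con, beside 16.7%, and for 9 in D2 Nal against D2 Dam, beside 18.8%. In NSC it lay off 0 for 5 in Nal against Con, beside 8.91% of genes, for 2 in Dam against Con, beside 7.78%, and for 4 in Nal against Dam, beside 10.8%. These intervals cover counting error only, so the counts are given as a description of single libraries.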

How the data were processed

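RNA was isolated with Trizol and sequenced from Illumina TruSeq RNA libraries, per the labels' protocols, a preparation that keeps no strand information. Bowtie, RSEM and build mm10 are named in the submitters' processing notes, and their versions, the gene annotation and any filters were not given in the sources used here. The authors deposited an expected count, which divides reads that map to several transcripts or genes, and a TPM value for each gene in each library. TPM is scaled by the authors to a fixed total and by the assigned length. The FPKM values, also deposited by the authors, were not used. Of 29267 gene identifiers 28756 matched GENCODE M21, which gave symbols and coordinates.

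Expected counts were rounded, a shift of up to 46.1 counts per library. The 13216 genes that averaged 10 counts or more entered edgeR 4.0.16 (R 4.3.3) with TMM scaling and the quasi-likelihood functions glmQLFit and glmQLFTest; the model was additive in state and ligand, with 2 residual degrees of freedom and Benjamini-Hochberg adjustment at 0.05 over all genes tested. Within a state, log2 ratios were taken on TMM-normalised CPM (prior count 2) and given exact binomial 95% intervals; 1 library a group allows no p. Intervals cover counting error only. Alternatives were DESeq2 1.42.0, its size factors, total counts, no filter, limma 3.58.1 on log2(TPM + 1), a model of state only, leaving out each library, a prior count of 0.5 and another fold. Transcripts were aligned with BLAST 2.17.0. The scripts were tested on simulated data.

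The members and lists were chosen with earlier results of these data known. Values in every library are given for Lars2, Gars, Kars, the 5 largest called rises and falls of each class, the 2 highest and 2 lowest members by mean TPM, and up to 4 members past a log2 ratio of 0.32 in size within a state; from other lists up to 4 called members with the largest changes, and Atf4, Eif2ak1, Gatb, Gatc and Qrsl1, are named as examples.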

Additional observations from a re-analysis of the deposited data

Results flagged for a closer look

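Lars2 is set apart because its log2 ratio of naloxone over control differed between the 2 states. This log2 ratio of Nal over Con was 1.501 in D2 and -0.18 in NSC, a difference of 1.68 (D2 minus NSC). Opposite signs alone were not particular to Lars2. Some other members kept 1 sign and some did not, such as Qars (-0.05 in D2 and 0.25 in NSC) and Hars2 (0.09 and -0.22). The NSC ratio of Lars2 was small and stayed within the limit used above for ratios within a state. Both exact binomial 95% intervals lay off 0, but they cover counting error only. In the same comparison the interval lay off 0 for 21% of the 13216 genes tested in D2 and for 8.91% in NSC. Each ratio rests on 2 libraries, so the difference was not tested. The same ratio for Gm42418 was 1.37 in D2 and 0.03 in NSC, and its part in the Lars2 difference was not tested.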

How the results depend on the processing

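No pairing by replicate was possible because each group held 1 library and the labels give no replicate numbers. The additive model itself matches D2 and NSC libraries by ligand, and the state-only model, without that match, gave 4 rising and 23 falling members. The counts of 4 rising and 22 falling members in D2 against NSC were within 1.5 times under every alternative run, at 4 and 22 to 23, except that 2 rose under DESeq2, which lost Lars2 and Hars2. The mitochondrial median log2 fold change was -0.20 under limma on log2(TPM + 1). Leaving out 1 library at a time gave 4 rising and 22 to 23 falling members, a cytosolic median of -0.77 to -0.69 and a mitochondrial median of -0.16 to -0.12. The library then left alone for its ligand was fitted by its own term and added nothing to the state estimate. Fits without either library of a ligand thus rest on the same pairs for the state and are not separate checks. The number of members called was 0 to 1 for naloxone against control, for DAMGO against control and for naloxone against DAMGO in those fits, and 1, 0 and 1 with no filter on low counts, in each case Lars2 alone. Lars2 was called for all 3 without NSC Con, and for both naloxone comparisons without NSC Nal. With no filter and without NSC Con, edgeR estimated infinite prior degrees of freedom, which gives all genes the same trended spread; without NSC Nal they were 16.1, beside 9.45 with all libraries.

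With D2 Dam in place of D2 Con the Lars2 log2 ratio in D2 Nal was 1.01, and 2 members were past a log2 ratio of 0.32 (Lars2 and Yars2); on log2(TPM + 1) there were 3, with Wars2 and Yars2 added. Nars2, at 0.00026 with all libraries, changed sign at -0.0030 with DESeq2's size factors, -0.013 with no filter and -0.0036 under DESeq2, and ran from -0.076 to 0.080 when 1 library was left out. Dars, at 0.02, ran from -0.041 to 0.076 when 1 library was left out; neither gene passed in any of these. Of the other single-gene values 414 kept direction and call, 6 gained a call (Ears2, Pars2, Vars2) and 3 lost one (Hars2, Lars2, Qars). The causes were not tested. With 83 to 124 counts for Pars2 in D2, counting error alone limits ratios of the least sequenced members.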
